A study of Homo sapiens with 6 samples.

Results

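The p53 target genes described here are AEN, TNFRSF10A, PPM1D, BTG2, GDF15 and SESN2. They were taken by gene symbol from the table of normalized signals, in which each of the 6 genes has a single row, out of 10191 transcript rows in all. Total RNA was sequenced from Huh7, an established line of human hepatocellular carcinoma, grown in DMEM and collected a week after puromycin selection. In the 3 control libraries the cells carried scrambled shRNA, and in the 3 knockdown libraries a short hairpin against ABL1, so both groups hold a hairpin and went through the selection. The sequence and number of the hairpins were not given in the sources used here. Nor do the labels name separate cultures, so p-values describe the spread among these 6 libraries, and that spread may be technical.

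The transcription factor p53 is switched on by DNA damage and other stress. It binds paired copies of a short DNA motif and raises the RNA of genes that halt the cell cycle, cause cell death, repair DNA, adjust metabolism and restrain p53 itself. Many of these genes also answer to other factors: GDF15 and SESN2 to the integrated stress response through ATF4, and GDF15 also to the growth response factor EGR1. ABL1 encodes a non-receptor tyrosine kinase, which in the nucleus takes part in the response to DNA damage. The 6 genes are called p53 targets for what they are known for in other cells. No p53 activity or binding was measured, and MDM2 and CDKN1A were not analysed here.

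The promoters of the members are shown first, since p53 acts through DNA near the start site or in the first introns. Of the 6 genes, 5 were matched by symbol to the RefSeq promoter table (GRCh38.p14), which gives 250 bases before and 50 after each start for 35116 promoters. The lines below show 120 bases each of plus-strand sequence, 5′ to 3′, for AEN (chr15:88621206-88621325), PPM1D (chr17:60600073-60600192), GDF15 (chr19:18386038-18386157) and SESN2 (chr1:28259398-28259517). The AEN and PPM1D promoters were chosen because a searched motif lies within the 120 bases shown. Those of GDF15 and SESN2 were chosen because these genes had the largest fall and the largest rise of the 6. Capitals mark a p53 half-site in AEN and the EGR1 element GCGNGGGCG in PPM1D.
AEN: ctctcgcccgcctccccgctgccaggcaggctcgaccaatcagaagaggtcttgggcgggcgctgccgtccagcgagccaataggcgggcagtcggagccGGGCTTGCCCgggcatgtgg
PPM1D: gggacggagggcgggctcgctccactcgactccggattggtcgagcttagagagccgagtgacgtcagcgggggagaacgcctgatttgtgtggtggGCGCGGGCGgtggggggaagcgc
GDF15: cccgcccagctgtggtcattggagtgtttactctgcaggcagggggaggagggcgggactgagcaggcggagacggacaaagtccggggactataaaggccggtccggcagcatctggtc
SESN2: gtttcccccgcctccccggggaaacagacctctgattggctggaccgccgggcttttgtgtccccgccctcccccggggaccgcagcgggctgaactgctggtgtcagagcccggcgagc

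Motifs were searched on both strands of the full promoter windows. A p53 half-site lay in 1 of the 5 promoters, that of AEN, 34 to 25 bases before its RefSeq start, and in 6.63% of all promoters. The RefSeq start of AEN is 44 bases downstream of the GENCODE 29 start used below, so by the GENCODE model this site and the last 30 bases of the AEN stretch lie inside exon 1. A pair of CATG cores with 6 bases between them was in 0 of the 5 and in 0.373% of all promoters. CATG is 1 form of the centre of a p53 half-site, and the AEN half-site has CTTG in its place. Between this CTTG and a CATG 21 to 18 bases before the RefSeq start of AEN lie 6 bases. The search for CATG pairs could not count such a mixed pair. A single CATG was in AEN and GDF15 and in 54.9% of all promoters, more common than not. The ATF4 element TGATGNAA was in 0 of the 5 and in 3.62% of all. The E-box CACGTG, which MYC can bind, was in AEN, 8 to 13 bases after the start, and in 7.26% of all. The EGR1 element GCGNGGGCG was in PPM1D, 23 to 15 bases before the start, and 2 times in BTG2, 172 to 164 and 151 to 143 bases before the start, and in 9.43% of all. These matches are letters in a short window, not measured binding, and a window without a match says nothing of the first introns or of distant sites.

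In GRCh38 (GENCODE 29), the GDF15 transcript NM_004864 lies on the plus strand of chromosome 19 from 18386158 to 18389176, with 2 exons. BTG2 (NM_006763) lies on the plus strand of chromosome 1 from 203305536 to 203309602, with 2 exons, and SESN2 (NM_031459) on the same strand of chromosome 1 from 28259527 to 28282491, with 10 exons. AEN (NM_022767) runs from 88621296 to 88632282 on the plus strand of chromosome 15 in 4 exons, and PPM1D (NM_003620) from 60600183 to 60666280 on the plus strand of chromosome 17 in 6 exons. Each of these rows is the gene's only RefSeq transcript in the reference used. The microRNA gene MIR3189 lies within GDF15 on the same strand, and the small RNA pseudogene RNU6-623P lies within PPM1D on the opposite strand. AEN, BTG2 and SESN2 overlap no other annotated gene.

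TNFRSF10A (NM_003844) lies on the minus strand of chromosome 8 from 23190452 to 23225126, with 10 exons. Its span overlaps 3 genes of the opposite strand, TNFRSF10A-AS1, RPL23AP55 and AC100861.1. Whether strand was used in counting was not given in the sources used here, so reads of TNFRSF10A and of these overlapping genes cannot be told apart.

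ABL1, the target of the hairpin, was checked first. Its more abundant transcript NM_007313 had 88, 64 and 76 reads in scrambled and 14, 9 and 9 in knockdown libraries, a fall from 72.1 ± 1.09 to 11.1 ± 2.33 normalized counts (SD, n = 3 each, log2 change -2.62, SE 0.26, limma adjusted p = 4.11e-06). Its other tested transcript, NM_005157, with 6 to 24 reads a library, had 8.74 ± 1.84 and 20.5 ± 3.75 normalized counts (log2 change 1.15, limma adjusted p = 0.0180). The libraries held 6651413 to 10487862 reads over the rows of the table. Log2 counts correlated at 0.984 to 0.988 across transcripts within a group and at 0.940 to 0.951 between groups, and no library stood apart.

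The comparison asked how RNA levels differ when ABL1 is knocked down. Of the 6 p53 targets, 4 fell and 2 rose. The fallers were the secreted stress cytokine GDF15, the death receptor TNFRSF10A, the nuclease AEN and the p53-restraining phosphatase PPM1D, at 1.40 to 2.54 times lower levels. The risers were the antiproliferative factor BTG2 and the nutrient sensor SESN2, at 1.31 and 1.83 times higher levels. In the same fit 51.9% of the 8600 transcripts tested changed (24.5% rose and 27.4% fell), and in 58.9% the groups did not overlap. The members were chosen with earlier results of these data known, so that all 6 passed follows from the choice and is read as no evidence about p53 targets. In bulk RNA, fewer cells that express a gene and less RNA per cell cannot be told apart.

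**Figure D1:**
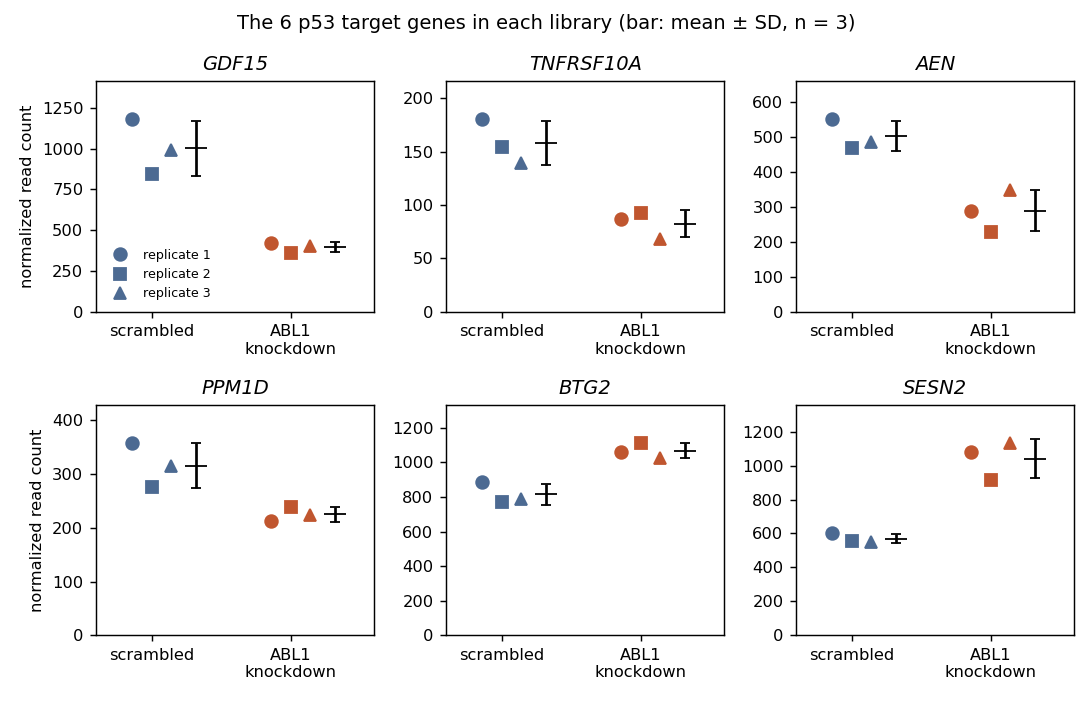
Normalized read count (y axis, linear, from 0) of each of the 6 genes in scrambled and the ABL1 knockdown libraries (x axis), 1 symbol per replicate, with the mean ± SD beside it (n = 3). GDF15, TNFRSF10A, AEN and PPM1D lie lower in all 3 knockdown libraries than in any scrambled library, and BTG2 and SESN2 higher.

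GDF15 encodes a secreted protein of the TGF-beta superfamily that is released by stressed cells and acts on appetite through the receptor GFRAL. Its normalized counts were 1178, 842 and 989 in scrambled replicates 1, 2 and 3 and 421, 359 and 404 in the knockdown replicates. Every knockdown library held less than any scrambled library, and the scrambled libraries were spread more widely (a coefficient of variation of 16.8%, against 8.03%). The mean fell from 1003 ± 169 to 395 ± 31.7 (SD, n = 3 each), a log2 change of -1.33 (SE 0.12, limma adjusted p = 1.6e-06). By the size of its log2 change GDF15 stood above 90.6% of all tested transcripts, the highest place among the 6 genes.

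TNFRSF10A encodes a cell surface receptor for the ligand TRAIL, which starts cell death through caspases. It had 216, 138 and 148 reads in scrambled and 89, 82 and 66 in knockdown libraries, the fewest of the 6 genes. The normalized counts were 180, 155 and 139 in scrambled and 87.1, 92.7 and 68.1 in knockdown libraries. The groups lay apart, with the highest knockdown library well under the lowest scrambled library. The mean fell from 158 ± 20.8 to 82.6 ± 12.9, a log2 change of -0.93 (SE 0.17, limma adjusted p = 0.000588).

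AEN encodes a nuclease of the nucleus and nucleolus that degrades DNA and RNA in dying cells. Its normalized counts were 550, 470 and 486 in scrambled and 290, 229 and 348 in knockdown libraries. The knockdown libraries varied most for this gene (a coefficient of variation of 20.5%, the highest of the 6 genes), with replicate 2 low and replicate 3 high, and still did not reach the scrambled libraries. The mean fell from 502 ± 42.6 to 289 ± 59.1, a log2 change of -0.81 (SE 0.14, limma adjusted p = 0.000374).

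PPM1D encodes the phosphatase WIP1, which removes activating phosphates from p53 and from DNA damage kinases and so closes a feedback loop. Its normalized counts were 357, 275 and 314 in scrambled and 212, 238 and 223 in knockdown libraries. The groups did not overlap, but scrambled replicate 2 and knockdown replicate 2 lay near each other. The mean fell from 315 ± 41.1 to 225 ± 13.2, a log2 change of -0.48 (SE 0.12, limma adjusted p = 0.00563). This was the only call among the 6 that depended on a setting tried: with libraries scaled to equal totals the log2 change was -0.31 (limma adjusted p = 0.0527, the highest of a range that began at 0.00160).

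BTG2 encodes a small protein that slows cell division and brings the CCR4-NOT deadenylase to messenger RNAs. Its normalized counts were 885, 770 and 788 in scrambled and 1062, 1111 and 1024 in knockdown libraries. All knockdown libraries lay above all scrambled libraries, and they varied least here among the 6 genes (a coefficient of variation of 4.07%). The mean rose from 815 ± 62.1 to 1066 ± 43.4, a log2 change of 0.39 (SE 0.08, limma adjusted p = 0.00200). The size of this change exceeded that of 45.4% of tested transcripts, the lowest place of the 6 genes.

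SESN2 encodes a sestrin, which senses leucine and holds back the growth kinase complex mTORC1 through the GATOR complexes. Its normalized counts were 600, 557 and 550 in scrambled and 1080, 912 and 1132 in knockdown libraries. The scrambled libraries were close together, and the lowest knockdown library was far above them. The mean rose from 569 ± 27.3 to 1041 ± 115, a log2 change of 0.87 (SE 0.10, limma adjusted p = 1.04e-05).

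The log2 change of each of the 6 genes kept its sign under the 17 alternatives tried. Those of filter, variance trend, threshold and replicate block cannot alter the log2 change and bear only on the calls. With 1 library left out the log2 change ran from -1.45 to -1.21 for GDF15, from -1.02 to -0.80 for TNFRSF10A, from -0.96 to -0.66 for AEN and from -0.58 to -0.39 for PPM1D. For the risers it ran from 0.35 to 0.45 for BTG2 and from 0.80 to 0.96 for SESN2. Equal totals shifted all transcripts upward (their median log2 change went from 0.0018 to 0.174), which made the 4 falls smaller and the 2 rises larger. Scrambled replicate 1 held the highest scrambled value for all 6 genes, a place it held for 35.8% of tested transcripts, and it was the library with the most reads.

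**Figure D2:**
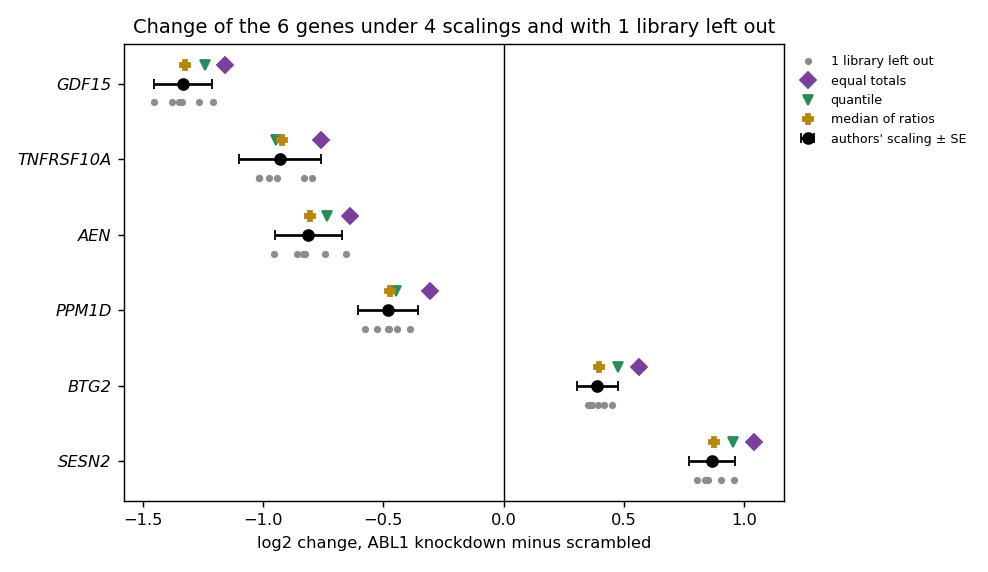
Log2 change of the 6 genes (x axis, knockdown minus scrambled) with the authors' scaling (black points, ± SE), with 3 other scalings (coloured symbols) and with each of the 6 libraries left out (grey points). With equal totals PPM1D moves from -0.48 to -0.31 and SESN2 from 0.87 to 1.04.

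Ratios of reads between members within a library do not depend on the scaling. For every read of GDF15 there were 0.510, 0.662 and 0.556 reads of SESN2 in scrambled libraries and 2.57, 2.54 and 2.80 in knockdown libraries. The order of these 2 genes by reads was thus opposite in the groups, and the mean ratio was 4.58 times higher in the knockdown (0.576 ± 0.0780 against 2.63 ± 0.143, SD, n = 3 each). The ratio of BTG2 to AEN reads was 1.61, 1.64 and 1.62 in scrambled libraries and 3.67, 4.84 and 2.95 in knockdown libraries. This ratio was nearly constant in the scrambled group and varied in the knockdown group with AEN. Among the fallers, the ratio of AEN to PPM1D reads was 1.6 ± 0.0959 and 1.30 ± 0.305 with overlapping groups, and that of GDF15 to AEN went from 1.99 ± 0.179 to 1.39 ± 0.208 with no overlap.

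Levels were compared between genes per kilobase of transcript (normalized count divided by transcript length). In the scrambled libraries GDF15 stood highest at 836 ± 141 per kilobase, followed by BTG2 at 300 ± 22.9. SESN2 (165 ± 7.90) and AEN (161 ± 13.7) came next and did not differ beyond their spread, nor did PPM1D (66.0 ± 8.61) and TNFRSF10A (58.2 ± 7.66) after them. In the knockdown libraries BTG2 stood first at 393 ± 16.0 per kilobase, above GDF15 at 329 ± 26.4 and SESN2 at 302 ± 33.2, whose libraries overlapped. AEN (92.7 ± 19.0), PPM1D (47.0 ± 2.76) and TNFRSF10A (30.4 ± 4.75) followed without overlap. GDF15, with a transcript of 1200 bases, was thus the leading transcript of the 6 in the scrambled cells and shared the second place with SESN2 in the knockdown cells. The level of AEN depends on its transcript model, and with the longest annotated model (5039 bases in place of 3117) it was 99.6 and 57.3 per kilobase.

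The transcripts whose log2 values followed each member most closely over the 6 libraries were found among the 4300 tested transcripts at or above the median mean count. With 6 libraries in 2 groups, a high Pearson r largely restates the group difference, and the values are a description. For GDF15 they were the MAP kinase phosphatase DUSP5 (r = 0.999) and the Fanconi anaemia gene FANCG (0.998), and 681 transcripts reached an r of 0.95. For SESN2 they were CLSTN3 and DNAJC5 (0.999 each), with 401 transcripts at or above 0.95. AEN was closest to MICAL3 (0.999) and TRAF7 (0.998), TNFRSF10A to MIEN1 (0.998), and BTG2 to LMBRD2 (0.995) and CNTNAP1 (0.991). PPM1D had the fewest such transcripts, 56, led by MEPCE (0.993) and NPM3 (0.990).

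Other p53 targets moved in both directions. Of 102 genes on 5 lists of known p53 targets by role, which include the 6, 49 had a row and 44 were tested. Among these 44, 8 rose and 14 fell, so 50% changed, against 51.9% of all tested transcripts, and their median log2 change was 0.003, against 0.0018. Without the 6 members, 6 of 38 rose and 10 fell (42.1% changed). With equal totals the counts over the 44 turned to 15 rises and 10 falls, so the balance of directions rests on the scaling. Over all tested transcripts the share of calls that were rises went from 47.2% to 63.6%, so this shift is not particular to p53 targets. The counts by role below stand beside 24.5% rises and 27.4% falls over all tested transcripts.

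**Figure D3:**
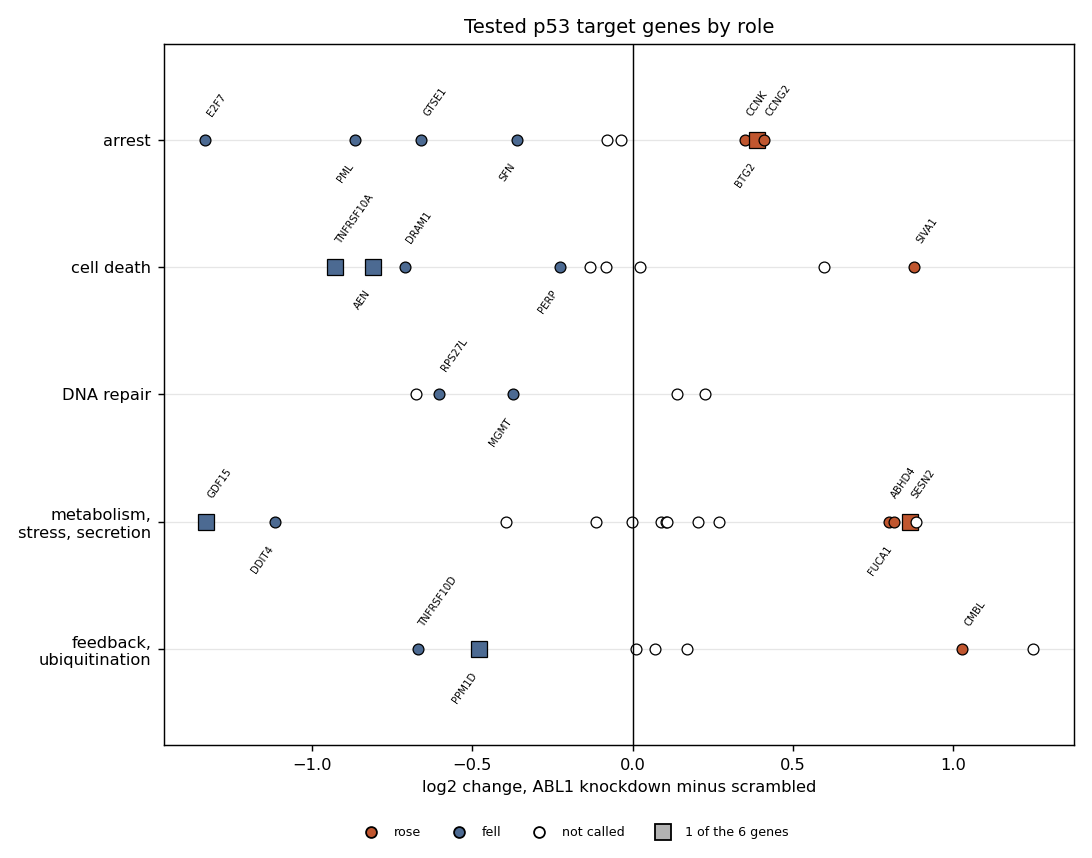
Log2 change (x axis, knockdown minus scrambled) of the 44 tested p53 targets in 5 rows by role, with filled points for genes that passed the test (labelled), open points for those that did not, and squares for the 6 genes. With the authors' scaling every role but DNA repair holds both rises and falls, and the 2 called genes of DNA repair fell (1 rose and 1 fell with equal totals).

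Among 9 tested targets of cell cycle arrest, the group of BTG2, 3 rose and 4 fell (3 and 3 with equal totals). E2F7, a repressor of E2F target genes, fell from 105 ± 4.15 to 41.5 ± 6.91 normalized counts (log2 change -1.33, limma adjusted p = 9.23e-05). PML (-0.87), the organiser of nuclear bodies, GTSE1 (-0.66), a protein that carries p53 out of the nucleus, and SFN (-0.36), the 14-3-3 sigma protein, fell as well. SFN lost its call with equal totals (log2 change -0.19). CCNG2 (0.41), an atypical cyclin that slows division, and CCNK (0.35), a partner of transcriptional kinases, rose with BTG2 by similar amounts. CCNK lost its call in limma without the mean-variance trend (adjusted p = 0.0573). BTG1, the nearest relative of BTG2, was at 2952 ± 182 and 2794 ± 230 normalized counts and was not called (log2 change -0.08, and 0.09 with equal totals).

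Among 9 tested targets of cell death, the group of AEN and TNFRSF10A, 1 rose and 4 fell (1 and 3 with equal totals or quantile scaling). DRAM1, a lysosomal protein of autophagy, fell from 3584 ± 98.6 to 2192 ± 181 normalized counts (log2 change -0.71, limma adjusted p = 8.29e-06). SIVA1, a partner of death receptors, rose from 123 ± 17.6 to 228 ± 33.3 (log2 change 0.88, limma adjusted p = 0.000393), close in size to the fall of TNFRSF10A. PERP, a membrane protein of cell junctions, had a small fall (-0.23) whose call was lost with equal totals (-0.05), with quantile scaling (-0.14), without the trend, and without scrambled replicate 3 (-0.18) or knockdown replicate 3 (-0.18). BBC3, the BH3-only protein PUMA, had 39.7 ± 16.6 and 60.6 ± 25 normalized counts with overlapping groups and was not called (log2 change 0.60, limma adjusted p = 0.202). Without knockdown replicate 1 it was called (0.99, limma adjusted p = 0.0282).

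DNA repair was the smallest role, with 5 tested genes of which 2 fell and 0 rose, or 1 of each with equal totals. RPS27L, a ribosomal protein paralog, fell from 1058 ± 154 to 693 ± 72.7 normalized counts (log2 change -0.60, limma adjusted p = 0.000641). MGMT, which removes alkyl groups from guanine, fell by 0.37 on the log2 scale, a call lost with equal totals (-0.20), with quantile scaling (-0.26), without the trend, and without scrambled replicate 1 (-0.28) or knockdown replicate 3 (-0.30). DDB2, a sensor of ultraviolet damage, had 70.9 ± 19.0 and 44.9 ± 16.4 normalized counts (log2 change -0.68) and was not called. Its limma adjusted p was 0.0647, and it was called with quantile scaling (0.0490) and without scrambled replicate 1 (0.0307) or knockdown replicate 1 (0.0168).

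Among 14 tested targets of metabolism, stress and secretion, the group of GDF15 and SESN2, 3 rose and 2 fell (7 and 2 with equal totals). DDIT4, which like SESN2 holds back mTORC1, fell from 3106 ± 339 to 1428 ± 84.7 normalized counts (log2 change -1.12, limma adjusted p = 5.92e-07) and so moved with GDF15 and against SESN2. The lysosomal fucosidase FUCA1 (0.82) and the lipid hydrolase ABHD4 (0.80) rose by nearly as much as SESN2. Of 7 tested targets of feedback and ubiquitination, CMBL, a hydrolase, rose from 442 ± 31.6 to 902 ± 13.4 (log2 change 1.03, limma adjusted p = 1.09e-06). The decoy receptor TNFRSF10D (-0.67) and PPM1D fell, and the other 4 were not called (3 rises and 1 fall in this role with equal totals).

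Of 29 genes for p53 and its regulators 9 were tested. Only ABL1, by its more abundant transcript NM_007313, and PPM1D were called, both lower (1 rise and 1 fall with equal totals). The other tested ABL1 transcript, NM_005157, rose (log2 change 1.15). The kinases that signal DNA damage to p53 were among the genes not called: ATM had 981 ± 42.1 and 949 ± 69.8 normalized counts (log2 change -0.05) and ATR 274 ± 25.8 and 281 ± 21.2 (0.04). The coactivator EP300 had a log2 change of 0.19 (limma adjusted p = 0.0833). It was called with equal totals (0.37), with quantile scaling (0.27) and without knockdown replicate 2 (0.27).

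Each member was then set beside its relatives and partners. Over all tested transcripts 24.5% rose and 27.4% fell, so 51.9% changed. With its member included, the share changed was 84.6% on the GDF15 list and 66.7% on the death receptor and exonuclease lists. It was 33.3% for PPM1 phosphatases, 50% on the BTG2 list and 60% on the SESN2 list. With equal totals 63.6% of all calls were rises, against 47.2%. GDF15 belongs to the TGF-beta superfamily, and of 13 tested genes of its axis 8 fell and 3 rose, with a median log2 change of -0.35. With equal totals 4 fell and 4 rose (median -0.17). The inhibin subunit INHA (-1.80) and the growth factors TGFB1 (-0.78) and BMP8A (-1.0) fell, and TGFB3 (0.83) rose. The protease MMP14, which can cleave the GDF15 receptor, rose by 0.68, and so did the transcript NM_001289824 of FURIN, a convertase of such precursors, by 1.97 from 15.3 ± 2.05 normalized counts. The receptor gene GFRAL was not analysed here.

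TNFRSF10A fell alongside the decoy receptor TNFRSF10D, which binds the same ligand and passes on no full death signal. TNFRSF10D went from 1125 ± 63.3 to 706 ± 7.41 normalized counts (log2 change -0.67, limma adjusted p = 1.83e-05). Of 9 tested genes of the death receptor pathway 3 rose and 3 fell. Cytochrome c (CYCS, -0.59) fell, and the receptor TNFRSF1A (0.35) rose. The largest change on the list was that of DIABLO, which frees caspases from their inhibitors: its transcript NM_001278304 rose from 7.19 ± 2.63 to 31.2 ± 5.56 normalized counts (log2 change 2.02, limma adjusted p = 0.000667). The adaptor TRADD (0.32) also rose, but lost its call without scrambled replicate 2 or 3 or knockdown replicate 1 or 3 (0.27 to 0.32). The adaptor FADD, which TNFRSF10A recruits, was not called, at 1077 ± 47.7 and 956 ± 61.6 (log2 change -0.17).

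AEN had 5 tested relatives among exonucleases. ISG20L2 (-0.49) and REXO2 (-0.41) fell with it, and REXO1, at 822 ± 57.9 and 1494 ± 216 normalized counts, rose (log2 change 0.85). Of 12 tested PPM1 phosphatases PPM1D, PPM1F (-0.67) and PPM1J (-1.39) fell, the mitochondrial PPM1K (0.67) rose, and the other 8 were not called. Their median log2 change was -0.06 (0.11 with equal totals, where 2 fell and 2 rose).

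BTG2 rose with TOB2 (0.41, from 1833 ± 59.8 to 2427 ± 66.7 normalized counts), another member of the antiproliferative family. Of 10 tested genes of this family and of CCR4-NOT, the subunit CNOT11 (-2.26), the poly(A) binding protein PABPC1 (-0.70) and TNKS1BP1 (-0.72) fell, and the other 5 were not called. CNOT11 went from 8374 ± 970 to 1748 ± 173 normalized counts, a larger change than that of any of the 6 members.

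SESN2 stood among 20 tested genes of sestrins, GATOR and mTORC1, of which 7 rose and 5 fell, with a median log2 change of 0.13 (11 and 2 with equal totals, 7 and 3 with quantile scaling). SESN3 rose from 38.6 ± 13.5 to 75.9 ± 20.1 normalized counts (log2 change 0.98, limma adjusted p = 0.0109), and SESN1 was level at 57.8 ± 9.68 and 57.2 ± 3.10. The Rag GTPases RRAGD (0.99) and RRAGA (0.55), which carry the amino acid signal to mTORC1, and the autophagy genes ULK1 (0.81) and SQSTM1 (1.46) rose. SQSTM1 went from 80.6 ± 22.0 to 236 ± 103 normalized counts. Its knockdown libraries were widely spread, and knockdown replicate 1 (123) lay near scrambled replicate 3 (106). SEH1L (-0.93), a subunit of the GATOR complex that sestrins bind, and PRKAA2 (-0.43), a catalytic subunit of AMPK, fell, the latter with no call at equal totals (-0.25). The mTOR inhibitor DEPTOR fell from 23.7 ± 9.36 to 8.2 ± 3.16 normalized counts (log2 change -1.41), a call lost without scrambled replicate 2 (-1.13). The GATOR subunit WDR59 fell by 0.25 on the log2 scale, a call lost with equal totals (-0.08), with quantile scaling (-0.15) and without the trend. MTOR itself was not called, at 1839 ± 75.3 and 1925 ± 79.9.

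**Figure D4:**
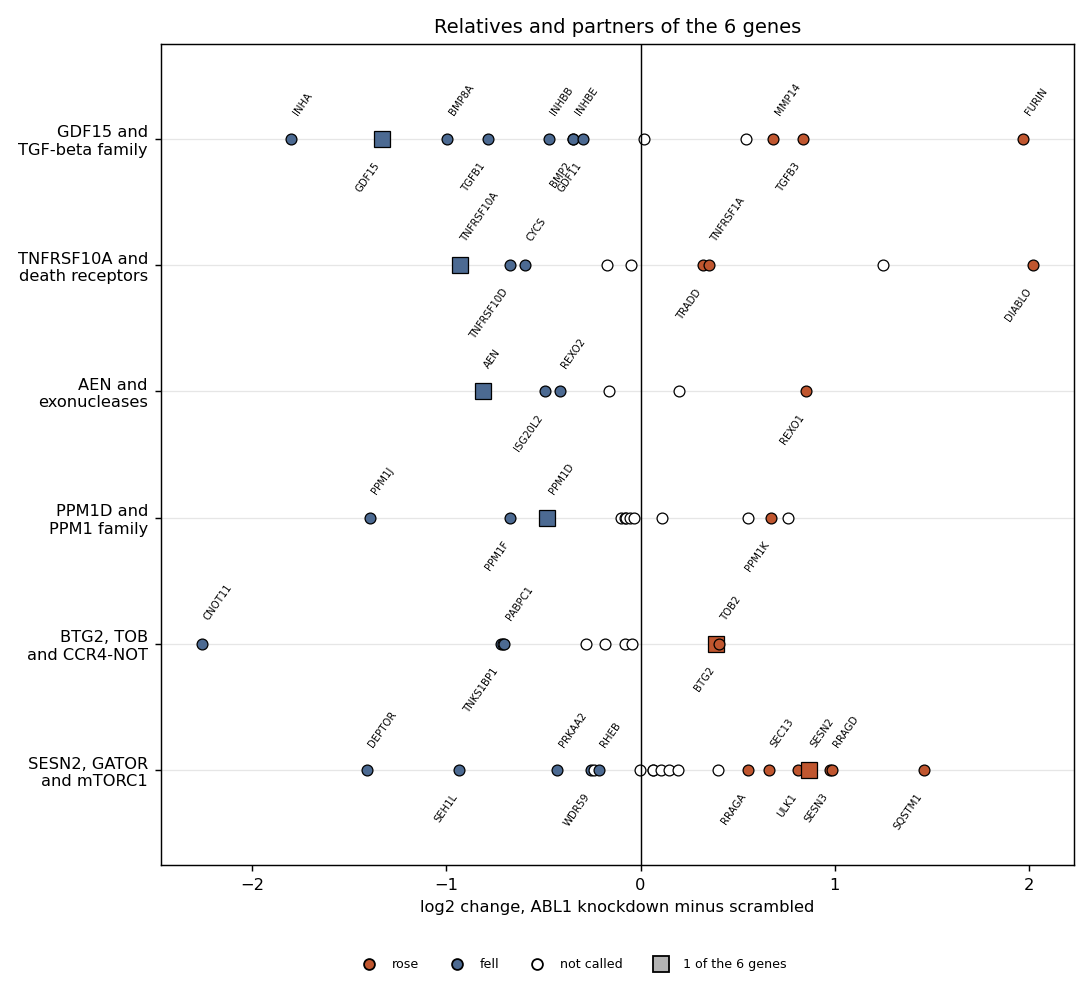
Log2 change (x axis, knockdown minus scrambled) of the tested relatives and partners in 6 rows, 1 for each of the 6 genes (squares), with filled, labelled points for genes that passed the test and open points for those that did not. With the authors' scaling 8 of 13 genes fell in the row of GDF15 (4 with equal totals), and 7 of 20 rose in the row of SESN2 (11 with equal totals). Over all tested transcripts 27.4% fell and 24.5% rose with the authors' scaling.

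GDF15 and SESN2 are also known targets of the integrated stress response, in which kinases that sense amino acid shortage or misfolded protein raise the factor ATF4. They moved apart here. The list for this response holds sensing kinases as well as targets. Of its 13 tested genes, GDF15 and SESN2 included, 4 rose and 4 fell (5 and 4 with equal totals), with a median log2 change of 0.04. The share changed was 61.5%, against 51.9% of all tested transcripts. CEBPD (-1.57), DDIT4 and STC2 (-0.81) fell with GDF15. The kinases EIF2AK3 (0.91) and EIF2AK4 (0.78) and the cystine carrier SLC7A11 (0.43) rose with SESN2. ATF4 RNA had 56.9 ± 8.01 and 51.5 ± 10.3 normalized counts and was not called (log2 change -0.15, and 0.02 with equal totals). The ATF4 protein was not measured.

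The DREAM repressor complex binds genes of cell division, and p53 is known to lower them through it. Of 16 tested genes on the DREAM list 11 fell and 0 rose (11 and 1 with equal totals), while 27.4% of all tested transcripts fell. The median log2 change of the list was -0.69, against 0.0018 over all. Among the genes that fell were MCM6 (-1.38), CDC20 (-1.19), PLK1 (-1.08), TOP2A (-1.51) and CCNA2 (-0.93). The 5 not called were MCM7, with 12 to 18 reads a library, and RBL1, RBL2, LIN37 and LIN52, which are subunits of the complex itself. The activity of p53 and of DREAM was not measured, and their part in these falls was not tested. EGR1 and MYC, transcription factors induced by growth signals, fell too. EGR1 went from 702 ± 20.6 to 226 ± 11 normalized counts (log2 change -1.63, limma adjusted p = 4.99e-08). MYC fell by 1.96 on the log2 scale. PPM1D and BTG2, the members with an EGR1 element in the window, moved in opposite directions. Binding of EGR1 was not measured, and its part in these changes was not tested.

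Cell type markers were read beside these results. The 7 tested hepatocyte markers, led by AFP, summed to 550876 to 621350 normalized counts in scrambled and 462863 to 511221 in knockdown libraries, so the labelled liver tumour line showed its defining markers in both groups. Of these, APOA2 (-0.97), TF (-0.44), ALB (-0.42) and APOB (-0.20) fell and 0 rose, against 3 falls and 2 rises with equal totals and 1 fall and 2 rises with quantile scaling. APOB lost its call when any library but knockdown replicate 3 was left out (-0.21 to -0.16). Of 6 tested fibroblast and stellate markers LUM (2.11), PDGFRA (1.84), COL3A1 (1.54) and COL1A2 (0.62) rose and COL1A1 (-1.03) fell, with sums of 8912 to 9908 and 13259 to 14609. Of 4 endothelial markers CDH5 (-1.14), STAB2 (-1.03) and PECAM1 (-0.59) fell and VWF (1.08) rose, with sums of 176 to 204 and 125 to 147, and 2 fell and 1 rose with equal totals. STAB2 lost its call there (-0.86) and without replicate 1 or 2 of either group (-1.10 to -0.75). Of 3 immune markers LAPTM5 (-2.39) and FCER1G (-0.79) fell and LYZ (0.21) rose, with sums of 5714 to 6331 and 6544 to 7489 that were nearly all LYZ, and 1 fell and 1 rose with equal totals. FCER1G lost its call there (-0.63) and without replicate 1 or 3 of either group (-0.80 to -0.72). LYZ lost its call without the trend and when any library but scrambled replicate 2 or knockdown replicate 3 was left out (0.16 to 0.22). The defining markers PTPRC, CD3E and KDR were not analysed here. These sums moved with the groups, and their part in the changes of the 6 genes was not tested.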

How the data were processed

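RNA-seq was deposited for 6 libraries of Huh7 cells, 3 per group, grouped by their titles. The authors deposited 1 normalized signal per transcript and library. Per the submitters' processing notes, HISAT2 2.0.4, HTSeq 0.6.1 and build hg38 were used, while annotation and strand setting were not given in the sources used here. Each squared signal was found to be a library's step times a whole number plus 0.375, which gave whole reads within 0.05 for 100% of rows in each library. The normalized count is the reads times the library's relative step, keeping the authors' scale factors. The 8600 transcripts with a mean of at least 10 were tested (1591 rows were left out, none of them members) with limma 3.58.1 (eBayes with trend, R 4.3.3) on log2(normalized count + 1), a scale that understates changes of low transcripts, two-sided, with p-values adjusted by Benjamini-Hochberg over all tested and a threshold of 0.05. A gene of a list enters with its most abundant tested transcript. The recovery and fit were run on simulated data with the steps and scale factors taken as known and few transcripts changed. That run could not test the estimate of the steps or the scaling.

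The members and gene lists were chosen with earlier results of these data known, and lists are described by counts and medians with no test. Named genes are the members, ABL1, MYC and EGR1, genes of each list with the smallest p (up to 4 per direction), and the 2 transcripts most like each member, of which 1 is not reported here. BTG1, SESN1, ATF4, EP300, BBC3, DDB2, ATM, ATR, FADD, MTOR, SESN3, SQSTM1, AFP and CCNA2 were named after their values were seen or as relatives of a member. Libraries of a group differed by a chi-square per degree of freedom of 5.92 to 10.7, so none was a duplicate. Alternatives covered pseudocount, filter, scaling, variance model, threshold, a replicate block and each library left out.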

Additional observations from a re-analysis of the deposited data

How the results depend on the processing

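The 6 genes kept their direction under all 17 alternatives on the log2 scale, and their calls under all but 1: with equal totals PPM1D had a log2 change of -0.31. The alternatives of filter, variance trend, threshold and replicate block cannot alter a log2 change, so they test only the calls. With equal totals 15 p53 targets rose in place of 8, and 13 in place of 6 outside the members. Over all tested transcripts 63.6% of calls were then rises, in place of 47.2%. Allowing a single p53 half-site gave 1 member with a match in place of 0 for a pair of CATG cores, a search that leaves out other forms of the core. Values near 0 that were not called changed sign: ATF4 was 0.022 with equal totals, BTG1 0.093 with equal totals and 0.031 with quantile scaling, and SESN1 0.17 with equal totals, 0.0039 with median of ratios and -0.12 to 0.11 with 1 library left out. For these changes of sign the cause was not tested. The replicate block gave 2301 rises and 2520 falls over all transcripts, 9 and 15 over the p53 targets, and 2 and 4 over the members. Under it DDB2 (limma adjusted p = 0.0230) and EP300 (0.0396) were also called. The replicate numbers are shared between the groups, but deviations of same-numbered libraries correlated at 0.0471, 0.0765 and 0.0768 only, and scrambled replicate 1 correlated best with knockdown replicate 3 (0.0886), so the numbers were not taken as pairs. Over 81 other named genes, 1369 of 1448 values under the alternatives kept direction and call. TNFRSF10A had the fewest reads of the members, 66 to 216 a library.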
